A study of Mus musculus with 4 samples.

Results

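The nuclear genes of oxidative phosphorylation were followed across single T cells from a mouse tumor and lymph node. A gene was a member if its symbol began with Nduf, Sdha, Sdhb, Sdhc, Sdhd, Uqcr, Cox4, Cox5, Cox6, Cox7, Cox8 or Atp5. This gave 92 of the 14721 genes in the table, and the 13 genes whose symbol begins with mt- stood beside them. By known role the 92 were 36 subunits of complex I, 8 complex I assembly factors, 4 subunits and 4 assembly factors of complex II, 8 subunits of complex III, 15 of complex IV, 15 of complex V, the supercomplex factor Cox7a2l and the coupling factor Atp5s. Ndufa4 was counted with complex IV, where its protein is now placed.

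Oxidative phosphorylation makes ATP in the mitochondrial inner membrane. Complexes I and II pass electrons from NADH and succinate to ubiquinone, complex III passes them on to cytochrome c, complex IV hands them to oxygen, and complex V uses the proton gradient to make ATP. Complexes I, III, IV and V are mosaics of subunits read from nuclear genes and subunits read from mitochondrial DNA, the mt- genes, so their assembly draws on both genomes. T cells run this machinery at rest and add glycolysis when activated.

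The cells came from mice with subcutaneous B16F10 melanoma, a transplantable mouse skin tumor, that received cyclophosphamide at 250 mg/kg and then 1000000 TRP1 CD4+ T cells, whose transgenic receptor recognises a melanocyte protein. Tissue was taken 11 days after the transfer, both libraries carry the strain label RAG1- BW TRP-1 TCR and the treatment label untreated, and cells were sorted as CD4+ or as CD4+CD8+. The labels do not state the recipient strain, the number of animals or the sort of the lymph node cells, and the lymph node library bears the same tissue-source and cell-type labels as the tumor library. The lymph node library is titled endogenous and the tumor library transgenic and endogenous. Tissue and library cannot be told apart in any comparison between them. Receptor origin was not assigned to cells, so it may differ along with the library, and also between labels within the tumor library.

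Each tissue had 1 RNA library, so there was no replicate and no test, and every interval below is a 95% interval that covers counting error only. The tumor library held 5570 cells and 33147030 UMIs (unique molecular identifiers, one per captured RNA molecule), and the lymph node library 4988 cells and 29067001 UMIs, with 36 cell barcodes found in both. The authors' cell labels with 50 or more cells were Tdp (2693 cells), Cd4 (2451) and Tcell (406) in tumor, and Cd8 (2788), Cd4 (1873) and Treg (321) in lymph node. All 6 T cell markers were detected in every label. Among markers of other cell types, the sum per label was at most 54.7 CPM (UMIs per 1000000 UMIs of the label) for natural killer cells, 51.9 for endothelial cells, 4.75 for macrophages, 1.19 for melanoma and 0.53 for neutrophils, dendritic cells and fibroblasts. The B cell genes Cd79a, Cd79b and Ms4a1 summed to 31.0 CPM in lymph node Treg and 19.8 in lymph node Cd8 cells, against 1.11 in lymph node Cd4 cells and 0.072 to 1.92 in the tumor labels; erythroid markers are not reported here. The macrophage gene Adgre1 had no UMI in any label, the endothelial gene Cdh5 had none outside lymph node Cd4 cells and the natural killer gene Ncr1 had none outside lymph node Cd8 cells. Ribosomal protein genes took 28.3% to 34.3% of the UMIs in the tumor labels. In lymph node they took 43.6% in Cd4, 44.3% in Cd8 and 31.9% in Treg cells. A share of all UMIs is therefore set against a total that differs between labels, also within the lymph node. No cell had more than 5% of its UMIs in mt- genes, an upper limit present in the table as deposited.

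Promoters of 4 of the members named below are shown from RefSeq (GRCm38.p6). Others that stand out below, such as Ndufb8, Cox5a and Cox7a2l, are not shown. Each runs from 100 bases before to 30 bases after the transcript start, on the gene's strand. The windows are chr19:7217587-7217716 (minus strand) for Cox8a, chr8:83566658-83566787 (plus strand) for Ndufb7, chr6:11907421-11907550 (minus strand) for Ndufa4 and chr7:30322346-30322475 (minus strand) for Sdhaf1. Capitals mark matches on either strand to CCGGAAG, letters bound by ETS factors such as GABPA.
Cox8a: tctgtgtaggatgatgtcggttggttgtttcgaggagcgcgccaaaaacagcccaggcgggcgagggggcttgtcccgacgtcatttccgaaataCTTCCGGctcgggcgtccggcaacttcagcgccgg
Ndufb7: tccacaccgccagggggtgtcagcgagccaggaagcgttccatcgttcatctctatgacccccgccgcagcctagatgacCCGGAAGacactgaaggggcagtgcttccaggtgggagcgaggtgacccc
Ndufa4: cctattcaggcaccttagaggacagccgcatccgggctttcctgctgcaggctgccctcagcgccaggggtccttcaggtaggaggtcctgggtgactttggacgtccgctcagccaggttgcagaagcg
Sdhaf1: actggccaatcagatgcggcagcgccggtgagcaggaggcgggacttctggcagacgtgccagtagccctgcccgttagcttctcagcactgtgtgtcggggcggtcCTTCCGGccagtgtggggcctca
Cox8a, Ndufb7 and Sdhaf1 each hold 1 match in the window, and Ndufa4 holds none there. The share of all promoters with a match in this 130-base window was not counted, and a link between a match and a direction of change was not tested. Of 83 member promoters of 78 genes, 25.3% (16.4 to 36.04) held CCGGAAG in the 300 bases from 250 before to 50 after the start, against 16.6% of the promoters of all genes in the table, a share inside that interval. The letters of NRF1, GCGCA and GCGC parted by any base N, were in 26.5% (17.4 to 37.3) of member promoters and 9.32% of those of the table, and AAGATGGC of YY1 in 13.3% (6.81 to 22.5) and 4.23%. The CCGGAAG and AAGATGGC letters can share the bases AAG. For reference, CCAAT was in 42.2% and 37.4%, and TATAAA in 8.43% and 7.35%. A match describes the letters and not a bound site.

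Summed over the 92 members, nuclear transcripts made up 1.75% to 2.23% of all UMIs of a label. The sum was 22204 CPM in tumor Tdp, 21685 in tumor Cd4 and 20503 in tumor Tcell cells, and 19513 in lymph node Cd8, 17544 in lymph node Cd4 and 22264 in lymph node Treg cells. Lymph node Cd4 cells were lowest, and lymph node Treg and tumor Tdp cells were highest, with intervals that overlap each other. When the total left out ribosomal protein, mt- and receptor segment genes, the order changed: lymph node Cd8 cells were highest at 37262 UMIs per 1000000 of the rest and the other labels lay between 32710 and 34137. The high place of the tumor labels therefore held on only 1 of these scales.

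**Figure D1:**
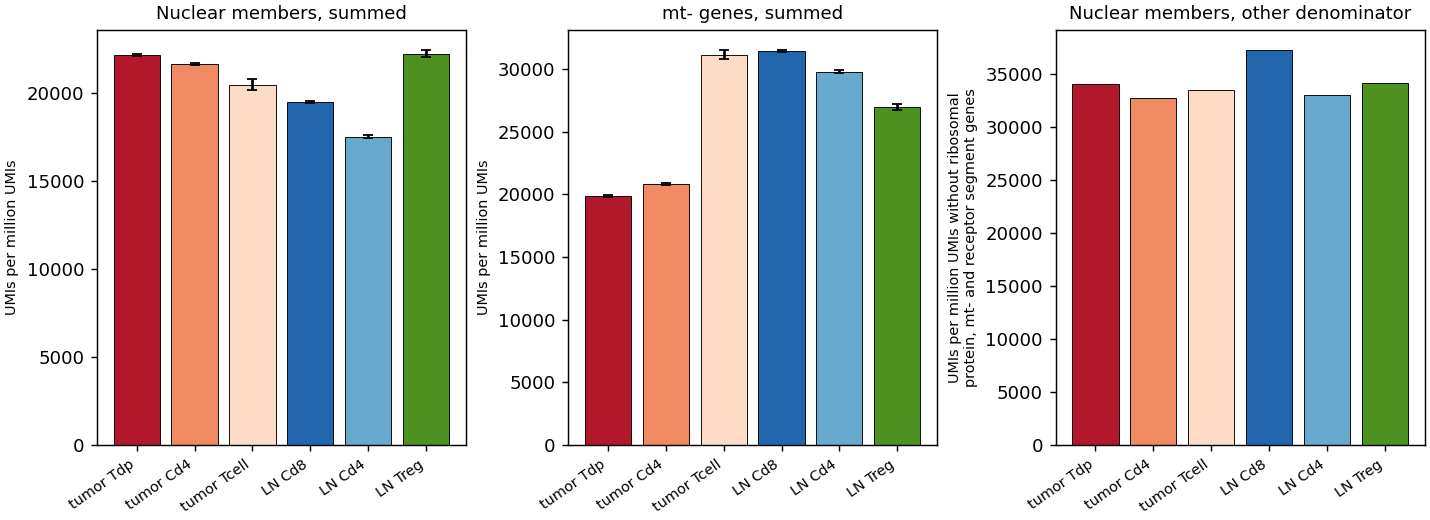
Summed UMIs of the 92 nuclear members (left), of the 13 mt- genes (middle), both per 1000000 UMIs of the label, and of the nuclear members per 1000000 UMIs without ribosomal protein, mt- and receptor segment genes (right), for 6 cell labels (LN, lymph node). Bars are sums over all cells of a label and error bars 95% counting intervals. On the right, lymph node Cd8 cells stand highest at 37262; in the middle, tumor Tdp and Cd4 cells stand lowest at 19848 and 20828.

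The mt- genes followed another order. They summed to 19848 CPM in tumor Tdp and 20828 in tumor Cd4 cells, against 31430 in lymph node Cd8, 29811 in lymph node Cd4 and 26957 in lymph node Treg cells. Tumor Tcell cells, which are shallow at a median of 2040 UMIs per cell where tumor Cd4 cells have 5533, had 31156 CPM, within the range of the lymph node labels. Per UMI of a nuclear member there were 0.894 mt- UMIs in tumor Tdp, 0.960 in tumor Cd4, 1.52 in tumor Tcell, 1.61 in lymph node Cd8, 1.70 in lymph node Cd4 and 1.21 in lymph node Treg cells. This ratio needs no total, so no scaling moves it. In single cells, the mt- UMIs outnumbered the nuclear ones in 32.5% of tumor Tdp and 42.9% of tumor Cd4 cells, and in 95.1% of lymph node Cd8 and 97.6% of lymph node Cd4 cells. With each cell thinned to 2000 UMIs, the medians were 44 nuclear and 39 mt- UMIs per cell in tumor Tdp, 42.5 and 41 in tumor Cd4, 38 and 63 in lymph node Cd8, and 35 and 59 in lymph node Cd4 cells. The thinning left out 30, 33, 26 and 62 cells of these labels, and 192 tumor Tcell and 12 lymph node Treg cells.

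Within a label the nuclear sum spread beyond counting error. In tumor Tdp cells thinned to 2000 UMIs, 90% of cells lay between 32 and 58 nuclear UMIs, with a standard deviation of 8.05 where counting alone would give 6.65. The spread was 8.09 against 6.54 in tumor Cd4 and 7.04 against 5.92 in lymph node Cd4 cells, and it was widest in lymph node Treg cells (9.79 against 6.67) and lymph node Cd8 cells (8.32 against 6.23). Cycling cells, those with UMIs of 2 or more of 7 cell cycle genes, had the higher nuclear sum in each of the 5 labels that had any: 22473 against 22194 CPM in tumor Tdp, 22817 against 21648 in tumor Cd4, 22863 against 19452 in lymph node Cd8, 21991 against 17506 in lymph node Cd4 and 25324 against 22029 in lymph node Treg cells. In tumor Tdp cells the 2 intervals overlap. Cycling cells also had more UMIs, for example a median of 8747 against 6284 in lymph node Cd8 cells.

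Complex V held the most nuclear UMIs of any complex, from 5891 CPM in lymph node Cd4 to 7329 in lymph node Treg cells, and complex IV ranged from 4102 in lymph node Cd4 to 6118 in tumor Tdp cells. The most abundant members of complex IV over all cells were Cox8a (1011 CPM), the smallest nuclear-encoded subunit, and Cox4i1 (888), a subunit involved in regulation of the enzyme by ATP. Complex V was led by Atp5e (930), the epsilon subunit of the catalytic head, and Atp5g2 (878), a source of the c subunit of the rotor ring. Complex III was led by Uqcrh (905), the hinge protein, and Uqcrq (269), complex I by Ndufa13 (413) and Ndufa6 (390), both accessory subunits, and complex II by Sdhb (163), its iron-sulfur subunit, and Sdha (66.5), its flavoprotein. These are levels in UMIs, which count molecules and are not scaled to transcript length. The 7 core subunits of complex I, which carry the electron path, together reached 427 to 661 CPM, while its 29 accessory subunits reached 4174 to 5281.

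Where a subunit has tissue forms, the widely expressed form was the one found. Cox6a1 lay at 268 to 335 CPM and its muscle form Cox6a2 at or under 0.53. Cox6b1 lay at 296 to 511 CPM and its testis form Cox6b2 at or under 2.32. Cox7a2 lay at 255 to 327 CPM and the muscle form Cox7a1 at or under 2.37. Cox4i2, known from lung, was listed at 0 in every tumor label, among 1768 genes with no UMI in the tumor library, and was at or under 0.22 CPM in lymph node. The genes Atp5g1, Atp5g2 and Atp5g3 encode the same mature c subunit. In tumor Cd4 against lymph node Cd4 cells Atp5g3 was at 818 against 491 CPM, while Atp5g1 was at 299 against 271 and Atp5g2 at 834 against 801.

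The design text names tumor CD4+ and CD4+CD8+ T cells, and the first comparison set tumor Tdp against tumor Cd4 cells, within 1 library. Sdhaf1 stood apart and the other members lay near 0. Of 80 members with a mean of at least 20 CPM in the 2 labels, none was 1.5-fold higher in Tdp cells, where the share over all genes was 2.49%, and 1 was 1.5-fold lower, where it was 5.68%. The remaining 12 members were below that minimum. The median log2 ratio of (CPM + 1) was 0.00 over members and -0.10 over all 4574 genes tested, and 68 of the 80 members lay above the median of all genes. Of all calls 30.5% were higher, and 49.6% with TMM scaling, which moved the median of all genes to 0.01 and that of members to 0.12. The log2 ratio of the nuclear sum was 0.03 (0.03 to 0.04) and that of the mt- sum -0.07 (-0.08 to -0.06), and all 13 mt- genes were below 0, of which 6 stayed below with TMM scaling.

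Sdhaf1 was the 1 member past the threshold. Its protein helps to place iron-sulfur clusters into Sdhb during assembly of complex II. It stood at 16.8 CPM in tumor Tdp and 45.8 in tumor Cd4 cells, a log2 ratio of -1.40 (-1.65 to -1.249 without the added 1), or 2.73-fold lower in Tdp cells. In the other labels it stood at 43.9 in tumor Tcell, 19.2 in lymph node Cd8, 25.5 in lymph node Cd4 and 68.3 in lymph node Treg cells. Tumor Tdp and lymph node Cd8 cells, in both of which most cells had UMIs of Cd8a or Cd8b1, were thus the lowest, and Treg cells the highest. After thinning to 2000 UMIs, 3.38% (2.73 to 4.14) of tumor Tdp and 7.86% (6.82 to 9.003) of tumor Cd4 cells had a UMI of Sdhaf1, and 3.87%, 5.30% and 13.3% of lymph node Cd8, Cd4 and Treg cells. Without thinning the shares in the tumor labels were 10.3% and 21.2%. Where cells were sorted by their own Cd4, Cd8a and Cd8b1 UMIs, the cells with both coreceptors stood at 16.3 CPM (14.3 to 18.5) among Tdp-labelled and at 39.2 (29.9 to 50.5) among Cd4-labelled cells. In lymph node Cd8 cells it was 17.7 CPM in 2607 cells with CD8 UMIs only, and 46.7 (30.2 to 69.0) in 57 cells with both. Among lymph node Cd4-labelled cells the order was the other way, with 41.4 (24.9 to 64.6) in 96 cells with CD8 UMIs only and 25.2 (20.7 to 30.4) in 854 cells with CD4 UMIs only, and the intervals overlap. The gene lies at chr7:30321409-30322375 and no other RefSeq gene overlaps it. The 4 subunits of complex II lay closer together in the tumor labels: Sdhb was at 186 and 162, Sdha at 67.5 and 74.98, Sdhd at 66.8 and 66.7 and Sdhc at 38.5 and 39.3 CPM in tumor Tdp and Cd4 cells. Sdhb, like Sdhaf1, was highest in lymph node Treg cells, at 221 CPM.

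Of the members with a mean of 50 CPM or more, Cox5a had the highest ratio. Cox5a, a matrix-side subunit of complex IV, was at 616 CPM in tumor Tdp and 469 in tumor Cd4 cells, a log2 ratio of 0.39 (0.35 to 0.44). Ndufa10 followed at 86.8 against 70.2 CPM (0.30), then Cox5b (0.26), Atp5h (0.23) and Ndufa13 (0.20). Lowest were Cox7c at 569 against 659 CPM (-0.21), Ndufb8 (-0.18), Uqcrb (-0.18), Atp5a1 (-0.18) and Ndufs8 (-0.17). Summed by complex, complex IV stood at 0.09 and the other subunit groups between -0.03 and 0.06. Complex II assembly stood at -0.37, which is Sdhaf1 for the most part, since its other tested members were at 0.31 (Sdhaf4) and -0.15 (Sdhaf2).

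The second comparison set tumor Cd4 against lymph node Cd4 cells. The nuclear sum was at 21685 against 17544 CPM, a log2 ratio of 0.31 (0.30 to 0.31), or 23.6% higher in tumor. With TMM scaling it was 0.19, and on the total without ribosomal protein genes -0.012, so its direction depends on the scale. At 1.5-fold, 11 of 80 members were higher, where the share over all genes was 25.7%, and 2 were lower, where it was 10.8%. The median log2 ratio was 0.19 over members and 0.19 over all genes, and on the total without ribosomal protein genes -0.12 and -0.15. Of all calls 70.4% were higher, against 60.4% with TMM scaling and 39.5% without ribosomal protein genes in the total. The median of the members thus lay at that of all genes, while smaller shares of the members were called in both directions. Individual members and the mt- genes lay away from that median.

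**Figure D2:**
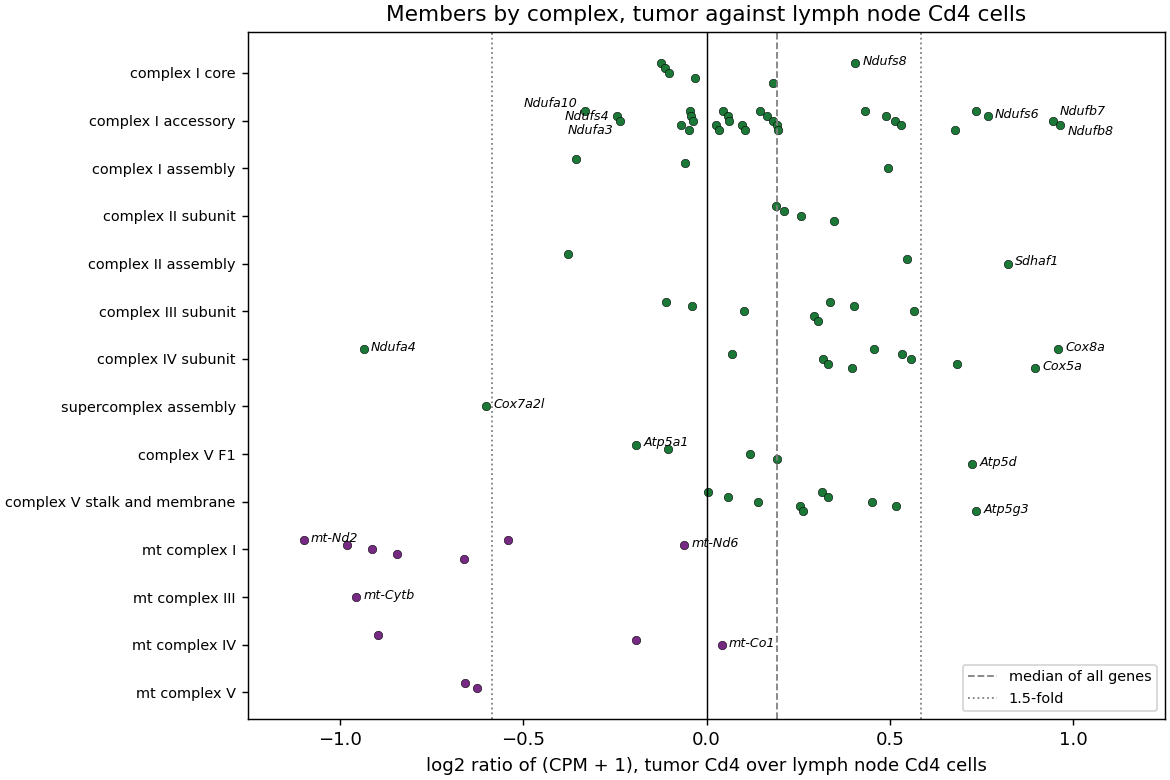
Log2 ratio of (CPM + 1), tumor Cd4 over lymph node Cd4 cells, on the horizontal axis for each of the 80 nuclear members (green) and 13 mt- genes (purple) with a mean of 20 CPM or more, by complex on the vertical axis. The dashed line is the median of all genes at 0.19 and dotted lines mark 1.5-fold. Complex IV members lie right of 0 except Ndufa4, and mt- genes lie left of 0 except mt-Co1.

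In complex IV, 10 of 11 tested members were above 0, or 9 with TMM scaling and 9 without ribosomal protein genes in the total, and the sum stood at 0.49 (0.47 to 0.51). Cox8a was at 1158 CPM in tumor Cd4 and 595 in lymph node Cd4 cells, a log2 ratio of 0.96 (0.92 to 1.00). Cox5a was at 469 against 252 CPM, a log2 ratio of 0.90 (0.83 to 0.97). Cox6b1, which faces the intermembrane space, was also past 1.5-fold, at 475 against 296 CPM (0.68). All 3 stayed above 0 with TMM scaling (0.84, 0.78 and 0.57) and without ribosomal protein genes in the total (0.64, 0.58 and 0.37). Ndufa4 ran the other way, as described further on.

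In complex I, the accessory subunits summed to 0.26 with 21 of 29 above 0, while the core subunits summed to 0.04 (-0.01 to 0.09) with 2 of 6 above 0. On the total without ribosomal protein genes 9 of the 29 and 1 of the 6 were above 0, and with TMM scaling 14 and 2. Ndufb8, an accessory subunit of the membrane arm, was at 234 against 119 CPM, a log2 ratio of 0.97 (0.87 to 1.07). Ndufb7, from the same arm, was at 247 against 128 CPM (0.94), and Ndufs6, a zinc-binding subunit of the matrix arm, at 113 against 66.1 (0.77). Ndufb9 and Ndufv3 were also past 1.5-fold. Of the complex I members with a mean of 50 CPM or more, the lowest were Ndufa10 at 70.2 against 88.6 CPM (-0.33), Ndufs4 at 78.9 against 93.7 (-0.25) and Ndufa3 at 202 against 238 (-0.23).

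Complex II subunits summed to 0.24, with all 4 above 0, complex III to 0.29, with 6 of 8 above 0, and no subunit of either was past 1.5-fold. On the total without ribosomal protein genes 1 of the 4 and 3 of the 8 were above 0. Sdhaf1 was past it, at 45.8 against 25.5 CPM (0.82). In complex V the catalytic head summed to 0.22, with 3 of 5 above 0, and the stalk and membrane part to 0.34, with all 10 above 0, which became 1 and 4 without ribosomal protein genes in the total. Atp5d, the delta subunit, was at 663 against 401 CPM (0.72), and Atp5g3 stood at 0.74, while the alpha subunit Atp5a1 was at 254 against 291 (-0.19) and the beta subunit Atp5b at 223 against 240 (-0.10). Atp5d overlaps Cbarp, and no label states whether counting used strand, so its value is uncertain. In all, 29 of the 92 members overlap another RefSeq gene. Atp5o is listed as Atp5o.1 in the table and may share its reads with a second entry.

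Cox7a2l and Ndufa4 were the 2 members past 1.5-fold lower in tumor. Cox7a2l joins complexes III and IV into supercomplexes. It was at 342 CPM in tumor Tdp, 326 in tumor Cd4, 483 in tumor Tcell, 457 in lymph node Cd8, 495 in lymph node Cd4 and 380 in lymph node Treg cells. Tumor Cd4 and Tdp cells were lowest and tumor Tcell cells lay with the lymph node Cd8 and Cd4 cells. Between the Cd4 labels its log2 ratio was -0.60 (-0.66 to -0.54), with TMM scaling -0.72 and without ribosomal protein genes in the total -0.92.

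Of the mt- genes, 12 of 13 were below 0 in tumor Cd4 against lymph node Cd4 cells, and 9 were 1.5-fold lower. The mt- sum stood at -0.52 (-0.52 to -0.51), a change of -30.1%, with TMM scaling at -0.63 and without ribosomal protein genes in the total at -0.83. Set against the nuclear sum, the log2 difference was -0.82 on all 3 scales. The lowest was mt-Nd2, a membrane core subunit of complex I, at 565 against 1211 CPM (-1.10). Also among the low ones were mt-Nd4l at 1366 against 2698 (-0.98), mt-Cytb, the cytochrome of complex III, at 1426 against 2767 (-0.96), and mt-Co3 at 2228 against 4151 (-0.90).

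Members of the same mitochondrial transcript pool differed from each other. mt-Co1, the catalytic subunit of complex IV, was at 5854.5 against 5689 CPM (0.04), and became -0.07 with TMM scaling and -0.28 without ribosomal protein genes in the total. mt-Co2 stood at -0.19, and mt-Nd6, the mt- gene read from the other DNA strand, at 37.0 against 38.6 CPM (-0.06, -0.26 to 0.14 without the added 1). The remaining ones lay between -0.54 (mt-Nd5) and -0.91 (mt-Nd3). As a result the mt- UMIs per nuclear UMI of the same complex were 0.655 against 1.43 in complex I, 0.651 against 1.54 in complex III, 2.06 against 3.44 in complex IV and 0.546 against 1.05 in complex V. The share of cells above 4% mt- UMIs was 0.979% in tumor Cd4 and 6.46% in lymph node Cd4 cells, near the 5% limit of the table, and without those cells the mt- sum stood at -0.50. What the limit removed before deposition was not tested.

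**Figure D3:**
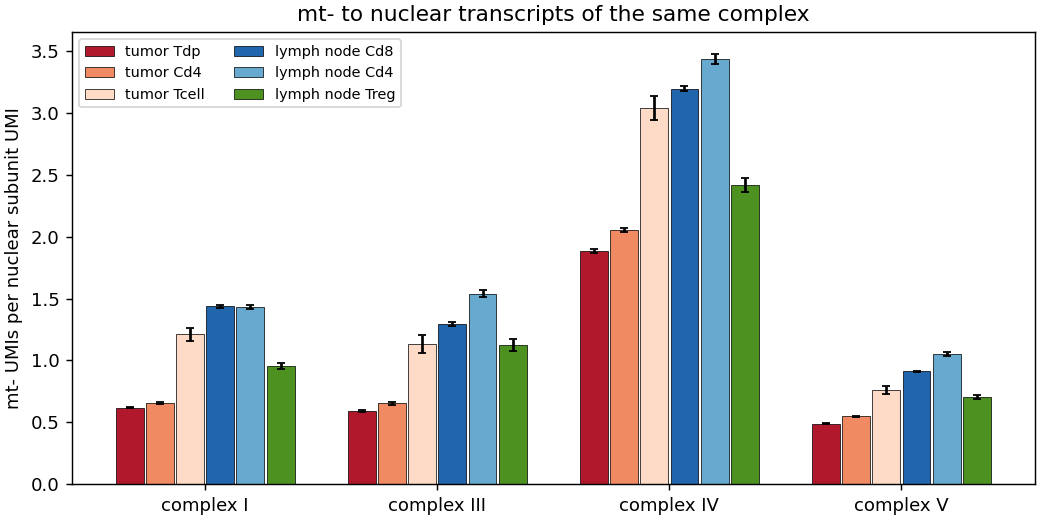
UMIs of mt- genes per UMI of nuclear subunits of the same complex (vertical axis, a ratio without unit) for complexes I, III, IV and V in 6 cell labels. Bars are ratios of summed UMIs and error bars 95% counting intervals. Tumor Tdp and Cd4 cells have the lowest ratio in each complex, for example 1.88 and 2.06 in complex IV, where lymph node Cd4 cells have 3.44.

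A second pair across the libraries, tumor Tdp against lymph node Cd8 cells, uses no cell of the Cd4 pair but the same 2 libraries. The nuclear sum was 22204 against 19513 CPM (0.19, and -0.13 without ribosomal protein genes in the total) and the mt- sum 19848 against 31430 (-0.66, and -0.98). At 1.5-fold, 5 of 79 members were higher, where the share over all genes was 21.4%, namely Atp5d, Cox5a, Cox8a, Ndufb7 and Ndufb8. Ndufa4 was the 1 member lower, where the share was 10.0%. Cox5a was at 616 against 305 CPM (1.01) and Cox8a at 1287 against 825 (0.64). All 13 mt- genes were below 0 and 10 were 1.5-fold lower, with mt-Nd2 at 515 against 1319 CPM (-1.35) and mt-Co1 at 5745 against 6817 (-0.25).

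**Figure D4:**
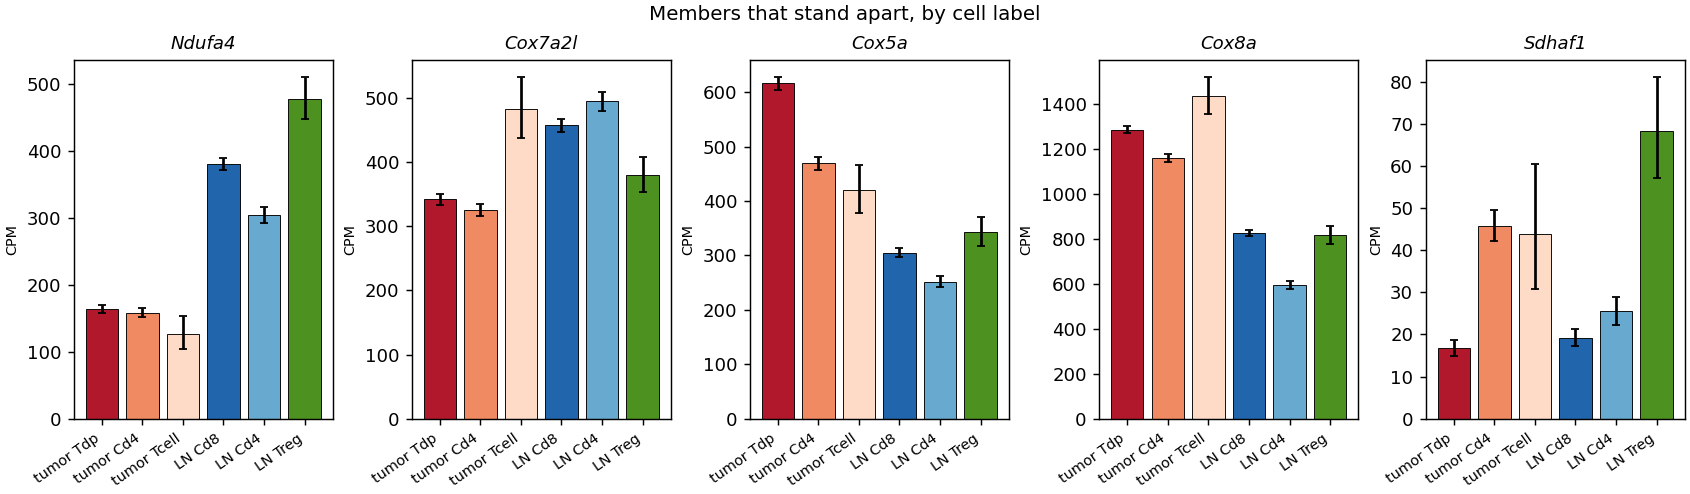
CPM of Ndufa4, Cox7a2l, Cox5a, Cox8a and Sdhaf1 in 6 cell labels (LN, lymph node), with 95% counting intervals and a separate vertical axis from 0 for each gene. Ndufa4 is lowest in the 3 tumor labels (127 to 164 CPM), Cox5a and Cox8a are highest there, and Sdhaf1 is lowest in tumor Tdp and lymph node Cd8 cells.

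Ndufa4 encodes a subunit at the surface of complex IV. It was at 164 CPM in tumor Tdp, 158 in tumor Cd4 and 127 in tumor Tcell cells, and at 381 in lymph node Cd8, 304 in lymph node Cd4 and 477 in lymph node Treg cells. No tumor label reached the lowest lymph node label. Between the Cd4 labels its log2 ratio was -0.94 (-1.02 to -0.86), or 1.92-fold lower in tumor, and -1.21 for tumor Tdp against lymph node Cd8 cells. Both were lower still with TMM scaling (-1.05 and -1.28) and without ribosomal protein genes in the total (-1.254 and -1.53). With cells thinned to 2000 UMIs, 28.5% of tumor Tdp and 25.7% of tumor Cd4 cells had a UMI of Ndufa4, against 51.9% of lymph node Cd8 and 44.5% of lymph node Cd4 cells. Without thinning the shares were 64.1%, 57.0%, 88.5% and 75.1%. The gene lies at chr6:11900372-11907450, with no overlapping RefSeq gene.

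In human cells the product of the gene C15orf48 (NMES1) is known to take the place of NDUFA4 in complex IV, and the same transcript carries a microRNA of the miR-147 family. The mouse gene, AA467197, lies at chr2:122637887-122641076 and contains Mir147. It was looked at because of the level of Ndufa4, and is not a member. AA467197 was at 140 CPM in tumor Tdp, 114 in tumor Cd4 and 109 in tumor Tcell cells. In lymph node it had 8 UMIs in Cd8 and 3 in Cd4 cells, 0.442 and 0.334 CPM, and none in Treg cells, where 3 UMIs would be 1.58 CPM. It was detected in 51.6% of tumor Tdp and 37.9% of tumor Cd4 cells, and in 0.251% of lymph node Cd8 and 0.160% of lymph node Cd4 cells. Free RNA in the tumor droplets was not estimated.

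Within the tumor Tdp and the tumor Cd4 label Ndufa4 was lower in the cells that had AA467197. In tumor Tdp cells it was at 188 CPM (178 to 198) in 1304 cells without a UMI of AA467197, at 148 (137 to 158) in 742 cells with 1, and at 144 (134 to 155) in 647 cells with 2 or more. In tumor Cd4 cells it was at 183 (174 to 193) in 1521 cells, 132 (120 to 146) in 549 and 116 (104 to 130) in 381. The cells without AA467197 had fewer UMIs, with medians of 5816 against 7350 in Tdp and 5059 against 6220.5 in Cd4 cells. In each of 3 depth classes, split at 4947 and 6777 UMIs so that each holds as many tumor-library cells, the cells without AA467197 still had the higher value: 200 against 146, 186 against 158 and 184 against 142 CPM in Tdp cells, and 184 against 128, 171 against 119 and 202 against 130 in Cd4 cells. In cells thinned to 2000 UMIs, with AA467197 called on the thinned UMIs, it was 177 (164 to 190) against 145 (125 to 169) in Tdp and 161 (149 to 174) against 105 (84.1 to 130) in Cd4 cells. Per 1000 nuclear member UMIs, Ndufa4 was at 8.62 against 6.48 in Tdp and 8.56 against 5.68 in Cd4 cells, a ratio that needs no total. Tumor Tcell cells were not split in this way. Between the tumor labels the order was not inverse, since the CPM of both genes was highest in Tdp and lowest in Tcell cells.

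No other ranked member was as low. Between cells with and without AA467197, the log2 ratio of Ndufa4 was -0.36 (-0.47 to -0.26) in Tdp and -0.55 (-0.68 to -0.42) in Cd4 cells, the lowest of 72 ranked members in both. The next lowest were Uqcrh at -0.07 and Ndufaf8 at -0.21, and the medians of members were 0.07 and 0.04. Among all ranked genes it was number 8 from the bottom of 2171 in Tdp and number 15 of 2361 in Cd4 cells. The tumor cells without AA467197 were themselves below lymph node Cd8 (381 CPM) and Cd4 cells (304). The pattern was chosen after its values were seen, cells are not replicates, and whether AA467197, miR-147 or another property of these cells moves with Ndufa4 in other animals was not tested.

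**Figure D5:**
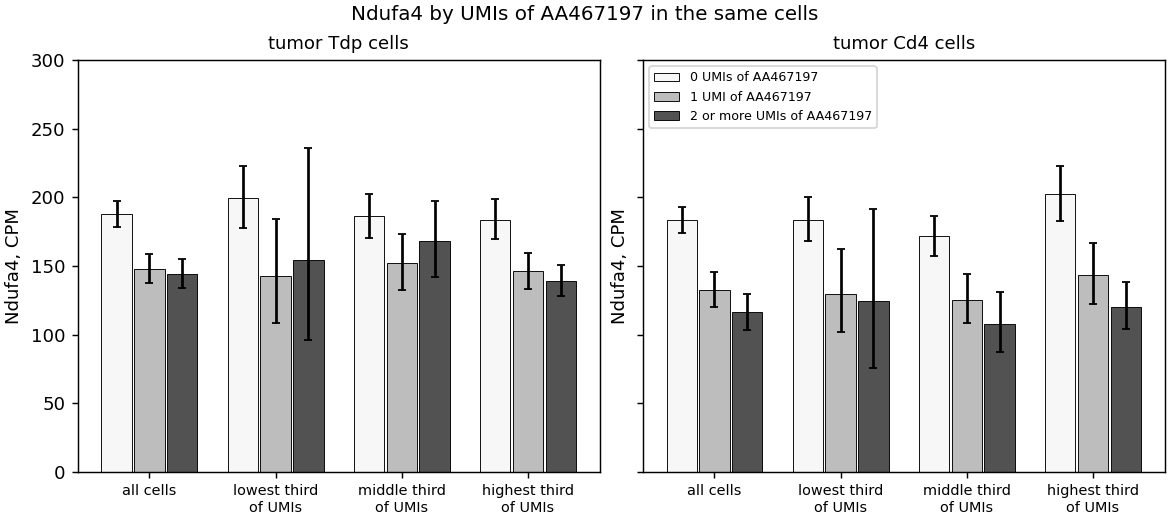
Ndufa4 in CPM (vertical axis, from 0) in tumor Tdp (left) and tumor Cd4 cells (right) with 0, 1, or 2 or more UMIs of AA467197, over all cells and in 3 depth classes. Bars are sums over the cells and error bars 95% counting intervals. The cells with 0 UMIs of AA467197 have the highest value in every set, 188 and 183 CPM over all cells, although intervals overlap in the lowest and middle depth classes of Tdp cells and, for 2 or more UMIs, in the lowest class of Cd4 cells.

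In the lymph node, Cd8 against Cd4 cells gave no member past 1.5-fold in either direction, where the shares over all genes were 3.46% higher and 3.89% lower. Still, 60 of 80 members were above 0 and 70 lay above the median of all genes, and the median was 0.11 over members and -0.07 over all genes. Of all calls 47.1% were higher, against 60.2% with TMM scaling and 27.2% with cells classed by coreceptor UMIs. The nuclear sum was 19513 against 17544 CPM (0.15), with complex IV at 0.25, complex V stalk and membrane at 0.17 and the complex I core at 0.00. Of the members with a mean of 50 CPM or more, Cox8a was highest at 825 against 595 CPM (0.47), then Cox5b, another complex IV subunit, at 413 against 306 (0.43), followed by Uqcr11 (0.38), Ndufa13 (0.37) and Cox6b1 (0.35). The lowest of these were Ndufs4 (-0.20), Uqcrfs1 (-0.17), Sdha (-0.14), Atp5a1 (-0.13) and Cox7a2l (-0.11), and of all 80 tested Sdhaf1 was lowest at -0.39. The mt- sum was 31430 against 29811 CPM (0.08), with 9 of 13 genes above 0. With cells classed by coreceptor UMIs the nuclear ratio became 0.07. The B cell genes stood at 19.8 against 1.11 CPM in this comparison. Leaving out cells with markers of another type removed 12 lymph node Cd8 and 0 lymph node Cd4 cells. As before, no member was called and 20 were below 0. With so few cells removed this cannot show the part of B cell RNA, which was not tested.

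Lymph node Treg cells, 321 in number, had a share of members called higher that lay near the share over all genes. Against lymph node Cd4 cells, 18 of 81 members (22.2%) were 1.5-fold higher, where the share over all genes was 23.1%. None was lower, where it was 3.37%. The median was 0.32 over members and 0.29 over all genes. The nuclear sum was 22264 against 17544 CPM (0.34), which became 0.01 with TMM scaling and 0.05 without ribosomal protein genes in the total. Of the members with a mean of 50 CPM or more, Uqcr11, a small subunit of complex III, was highest at 203 against 104 CPM (0.96), and next were Ndufb7 (0.82), Cox6b1 (0.79), Ndufa13 (0.78) and Uqcr10 (0.70). Below that mean, Sdhaf1 was at 68.3 against 25.5 CPM (1.39). Ndufa4 was at 477 against 304 CPM (0.65), and Cox7a2l was lowest at 380 against 495 (-0.38). The B cell genes Cd79a, Cd79b and Ms4a1 stood at 31.0 against 1.11 CPM in this comparison, and their part in it was not tested. The lymph node Cd4 cells were shared by this comparison and 2 others, and the tumor Cd4 cells by 3, so their values are not independent.

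Tumor Tcell cells had few UMIs, and against tumor Cd4 cells the median of the members lay near that of all genes. The median log2 ratio was -0.16 over members and -0.15 over all genes. The nuclear sum stood at -0.08, at -0.002 with TMM scaling and at 0.03 without ribosomal protein genes in the total. Of 80 members, none was 1.5-fold higher, where the share over all genes was 4.01%, and 8 were lower, where it was 18.6%. Of the members with a mean of 50 CPM or more, Atp5b, the catalytic beta subunit, was lowest at 96.1 against 223 CPM (-1.21), followed by Ndufs4 (-0.79), Uqcrc1 (-0.75) and Ndufc2 (-0.74). Below that mean, Ndufa9 was at 13.1 against 28.4 CPM (-1.06), and Ndufv1 (-0.85), Sdhaf2 (-0.73) and Sdhc (-0.71) were also among the 8. Such values rest on few UMIs. Sdhc had 20 in tumor Tcell cells, and its interval was -1.45 to -0.09 without the added 1. Of the members with a mean of 50 CPM or more, Cox7a2l at 483 against 326 CPM (0.57) and Cox8a at 1437 against 1158 (0.31) were highest. All 13 mt- genes were above 0, and 8 were 1.5-fold higher, with mt-Nd6 at 99.7 against 37.0 CPM (1.41). In this label 18.2% of cells were above 4% mt- UMIs, and the part of RNA quality or cell integrity was not tested.

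The genes around the pathway were read from 10 lists. Over all genes, 25.7% were higher and 10.8% lower at 1.5-fold in tumor Cd4 against lymph node Cd4 cells, and 2.49% and 5.68% in tumor Tdp against tumor Cd4 cells. In tumor Cd4 against lymph node Cd4 cells, all 13 tested glycolysis genes were 1.5-fold higher (median 1.40), whereas in tumor Tdp against tumor Cd4 cells all 13 were below 0 and 5 were 1.5-fold lower (median -0.49). The latter stands beside a median of 0.00 for the nuclear members in the same cells. In tumor Cd4 against lymph node Cd4 cells, 6 of 17 assembly factors outside the rule were higher and none lower, among them Cox17, the copper chaperone of complex IV, at 103 against 37.1 CPM, and Atpif1, the inhibitor of complex V, at 128 against 54.9. Of 8 electron and metabolite carriers, 3 were higher and none lower, with the uncoupling-family carrier Ucp2 at 1060 against 498 CPM. Of 70 mitochondrial ribosomal protein genes, which make the mt- encoded subunits, 9 were higher and 2 lower (median 0.12). Of 16 genes of pyruvate oxidation and the TCA cycle, 1 was higher and 2 lower, with the isocitrate dehydrogenase Idh2 at 7.23 against 55.8 CPM.

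Regulators of mitochondrial gene expression split. Tfam, which packages and transcribes mitochondrial DNA, was at 24.1 against 35.8 CPM in tumor Cd4 against lymph node Cd4 cells (-0.55), and at 21.8 against 33.1 in tumor Tdp against lymph node Cd8 cells (-0.58), in both just short of 1.5-fold. Gabpb1, a partner of the ETS factor GABPA, was at 62.8 CPM in tumor Cd4, 30.8 in tumor Tdp, 22.7 in lymph node Cd4 and 17.1 in lymph node Cd8 cells. Tumor Cd4 cells were the highest of these 4 labels. Of the 6 regulators tested between the Cd4 labels, 1 was called higher, Gabpb1, and 1 lower, Myc, at 25.2 against 48.1 CPM (-0.91). The median was -0.30. The other lists, in the same comparison, where 25.7% of all genes were higher and 10.8% lower, counted 1 higher and 1 lower of 15 import genes and chaperones, 1 higher and none lower of 5 fatty acid oxidation genes, 2 higher and 1 lower of 7 antioxidant enzymes, and neither of 2 coenzyme Q synthesis genes. Over the 6 labels, the genes whose log2(CPM + 1) ran most like the nuclear sum, of 2137 compared, were Eif4e2 (Pearson r = 0.998), Pet100 (0.996), Tmem126a (0.993), Rgs3 (0.987) and 1110008F13Rik (0.986). These are descriptions over 6 labels that share 2 libraries and their totals.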

How the data were processed

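Single-cell RNA of sorted mouse T cells was measured in 1 tumor and 1 lymph node library with 10x Genomics 5′ chemistry, per the labels' protocols. Cell Ranger 3.1.0 and the build mm10 are named in the submitters' processing notes. The authors deposited raw UMI counts per gene and cell, 14721 genes and 10558 cells, and an annotation table of other values per cell, from which the library and the cell label were taken; no label or header states how labels were set and cells filtered. The receptor libraries, and the clonotype and receptor sequence values of the annotation table, were not used.

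Counts were summed over the cells of a label and scaled to its total UMIs (CPM). Labels were compared by log2 of (CPM + 1). A gene was tested with a mean of both labels of 20 CPM or more and called at 1.5-fold. Intervals are exact Poisson, conditional Poisson (without the added 1) or Clopper-Pearson 95% intervals. No p-values were computed. Named members were, per comparison, the 5 highest and 5 lowest with a mean of 50 CPM and 100 UMIs, the 2 most abundant of each complex, every mt- gene, tissue forms of a subunit and examples of the lists. Sdhaf1, AA467197 and Gabpb1 in further labels were named after their values were seen, as were other called members. The members and lists were chosen with earlier results of these data known. The 10 lists hold 215 genes.

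Alternatives were TMM scaling (edgeR 4.0.16 in R 4.3.3), a total without ribosomal protein, mt- and receptor segment genes, an average of CPM over single cells, thinning to 2000 UMIs, coreceptor classes, other minimums, pseudocounts and folds, and leaving out cycling cells. Leaving out cells above 4% mt- UMIs, the top 5% of cells by UMIs, or cells with 2 or more markers of another type was chosen after seeing the data. No doublet caller was run. Positions and promoters are from RefSeq GRCm38.p6, in which all 92 members were found and 78 had a promoter. Python 3.11.15, numpy 2.4.6, scipy 1.17.1 and pandas 2.3.3 were used. The code for calls and intervals was run on simulated Poisson counts. These hold no spread between cells or libraries, so they cannot show how the intervals cover such spread.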

Additional observations from a re-analysis of the deposited data

How the results depend on the processing

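No paired analysis was possible because each tissue had 1 RNA library and the labels carry no shared replicate numbers, and there was no replicate to leave out.

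The sums moved with the scale. In tumor Tdp against tumor Cd4 cells the nuclear sum (0.03) was 0.15 with TMM scaling, 0.057 without ribosomal protein, mt- and receptor segment genes in the total and 0.045 after thinning. The mt- sum (-0.07) turned to 0.047 with TMM scaling, and was -0.047 on the other total, -0.059 as a mean over cells and after thinning, -0.061 without cells above 4% mt- UMIs, -0.062 without the 5% of cells with the most UMIs, and -0.083 with coreceptor classes. The count of called members (1) was 0 at a minimum of 50 CPM and 2 at a fold threshold under 1.5. In tumor Cd4 against lymph node Cd4 cells the nuclear sum (0.31) was 0.19 with TMM scaling, turned to -0.012 on the total without ribosomal protein genes, and was 0.29 as a mean over cells and after thinning and 0.22 with coreceptor classes. The mt- sum (-0.52) was -0.63, -0.83, -0.50 without cells above 4% mt- UMIs and -0.47 with coreceptor classes. The count of called members (13) was 8 on the total without ribosomal protein genes (3 higher, 5 lower), 0 at 2-fold and 35 at the lower threshold. In lymph node Cd8 against Cd4 cells the nuclear sum (0.15) was 0.23 with TMM scaling, 0.18 on the other total, 0.14 as a mean over cells, after thinning and without the 5% of cells with the most UMIs, and 0.065 with coreceptor classes. The mt- sum (0.08) was 0.15 with TMM scaling, 0.099 on the other total and with coreceptor classes, 0.087 as a mean over cells, 0.092 after thinning, 0.052 without cells above 4% mt- UMIs and 0.083 without the 5% of cells with the most UMIs. The count of called members (0) was 1 with coreceptor classes and 7 at the lower threshold. The cause of these shifts was not tested beyond the change of total itself. The mt- sum minus the nuclear sum was -0.82 on each scale for the tumor and lymph node Cd4 labels, and between -0.68 and -0.83 over all settings. In lymph node Cd8 against Cd4 cells that difference (-0.08) turned to 0.03 with coreceptor classes. Leaving out cells with markers of another type, or cycling cells, changed no direction and no count of called members in these comparisons.

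With 1 library per tissue, spread between animals is unknown. Members under 20 CPM, 12 in these comparisons, were too sparse for a ratio to be read.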

Other observations

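Labels with under 50 cells entered no comparison. The 19 tumor Treg cells had 22838 CPM of nuclear members and 17466 of mt- genes, a ratio of 0.765 mt- UMIs per nuclear UMI. The 6 lymph node Tdp cells had 23512 and 24055 CPM and a ratio of 1.02, and the 1 tumor Cd8 cell had 84 nuclear and 146 mt- UMIs.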
